A study of Caenorhabditis elegans with 4 samples.

Results

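The nuclear hormone receptor genes of Caenorhabditis elegans were examined for binding of SEA-2, a zinc finger protein. They were taken as every protein-coding gene whose name begins with nhr-, and 269 of the 19973 protein-coding genes on the nuclear chromosomes met this rule, with the same 269 names in the Ensembl and RefSeq annotations. A gene was counted when the summit of a peak, its point of highest signal, lay in a window from 1000 bp upstream to 200 bp downstream of any of its annotated starts. Receptors with other names, such as daf-12, did not meet the rule and are described separately.

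Chromatin immunoprecipitation with sequencing (ChIP-seq) recovers and reads the DNA bound to a protein. It was done on whole L3 larvae in 4 biological replicates of 1 group, so there was no contrast between conditions. All replicates were of the strain OP193, which carries the mutation unc-119(ed3) and the integrated transgene wgIs193, with sea-2 fused to a TY1, EGFP and FLAG tag and a copy of unc-119; the labels give the animals as mixed sex and their age as unknown. The labels describe fragments of 150 to 350 bp and worms from the CGC for replicates 1 and 2, and microtip sonication and worms from the Michael Snyder laboratory for replicates 3 and 4. The precipitated protein came from the transgene, and in whole animals the cells that gave a peak cannot be told apart.

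Nuclear hormone receptors are transcription factors with a zinc finger domain that binds DNA and a second domain that, in many members, binds a small lipophilic ligand and recruits coactivators or corepressors. Nematodes carry a greatly expanded family, most of it related to the HNF4 receptors of other animals, beside a small conserved set with clear counterparts in insects and vertebrates. Known roles in C. elegans include molting, fat metabolism, the response to food and the choice between larval fates.

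Few receptors carried a SEA-2 peak in their promoter window, as did few protein-coding genes as a whole. The receptors on the X chromosome did so more often than other X genes in the pooled list and in each of the 4 replicates. This X share was singled out after its value was seen, and in replicates 1, 2 and 4 its interval included the share of the other X genes. In the final list of 312 peaks, 2 receptors (0.743%) had a summit, nhr-1 and nhr-3, against 1.11% of all protein-coding genes. In the pooled list of 3912 peaks, 14 receptors (5.20%) had one, against 9.25% of all protein-coding genes. These 14 were nhr-1, nhr-3, nhr-48, nhr-255, nhr-49, nhr-23, nhr-32, nhr-25, nhr-68, nhr-66, nhr-11, nhr-209, nhr-281 and nhr-234, from the strongest peak to the weakest, and 7 of them lie on X. The pooled list was made as input for the threshold that gave the final list and, by its deposited name, holds background as well as peaks. Of its 3912 entries, 421 had a q-value of at most 0.05, and the first 4 receptors, all on X, were among them (1.49% of the family, against 1.5% of all protein-coding genes), while the −log10 q-values of the other 10 ran from 0.741 at nhr-49 down to 0.0173 at nhr-234.

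The 6 sequences below are the 101 bases centred on the pooled summits at the X receptors with the strongest pooled peaks. Of the 7 X receptors with a pooled summit, nhr-281, whose peak was the weakest, is not shown. At nhr-25, which is shown, no replicate had a summit in the window among its 3912 strongest peaks. The sequences are the plus strand of the RefSeq WBcel235 genome (ce11), 5′ to 3′. Capitals mark the letters GAGAGA or their reverse complement TCTCTC, the 1 motif searched. The spans are chrX:17513675-17513775 for nhr-1, chrX:14557534-14557634 for nhr-3, chrX:15707579-15707679 for nhr-48, chrX:15741952-15742052 for nhr-255, chrX:13251564-13251664 for nhr-32 and chrX:13008077-13008177 for nhr-25.
nhr-1: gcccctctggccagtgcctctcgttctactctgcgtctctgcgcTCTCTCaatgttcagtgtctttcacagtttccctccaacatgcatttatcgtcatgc
nhr-3: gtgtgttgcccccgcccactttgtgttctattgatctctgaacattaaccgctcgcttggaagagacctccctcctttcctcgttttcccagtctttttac
nhr-48: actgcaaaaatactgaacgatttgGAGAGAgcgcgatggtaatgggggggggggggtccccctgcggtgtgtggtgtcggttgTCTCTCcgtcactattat
nhr-255: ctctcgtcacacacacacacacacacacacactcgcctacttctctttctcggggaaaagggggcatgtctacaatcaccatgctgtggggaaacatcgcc
nhr-32: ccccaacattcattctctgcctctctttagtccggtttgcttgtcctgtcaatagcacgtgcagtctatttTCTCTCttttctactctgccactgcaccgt
nhr-25: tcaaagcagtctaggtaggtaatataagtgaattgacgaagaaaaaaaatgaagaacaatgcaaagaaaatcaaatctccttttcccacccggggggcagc

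The motif was present on either strand in 3 of the 14 receptor sites (21.4%), at nhr-1, nhr-48 and nhr-32, and in 278 of 1487 other peaks (18.7%), which were the distinct strongest pooled peaks in the windows of the other protein-coding genes. In windows of 101 bases centred 300 bp upstream of the 5′-most start, 7.81% of all receptor genes and 6.09% of all other protein-coding genes held it. The GC content of the receptor sites was 42.2% ± 9.76 (SD, n = 14 sites, from 21.8% to 55.4%), and that of the other promoter peaks was 42.2% ± 9.51 (SD, n = 1487 peaks). Receptor sites and other promoter peaks were thus alike in mean base composition and close in the share with the motif. A second genomic copy of at least 50 bp at 90% identity was found for the peaks at nhr-255 and nhr-234, 2 of 14 (14.3%), against 80 of 1487 (5.38%) of the other promoter peaks. Reads from such copies can be hard to place.

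The strongest site was at nhr-1, on X. The pooled peak (chrX:17513555-17513894) ranked 48 of 3912 by the signal value of the authors' peak caller, with a signal of 101.4 and a −log10 q-value of 2.56, and its summit was -338 bp from the nearest nhr-1 start (negative values are upstream). The replicate peaks over it had signal values of 39.2, 16.5, 31.1 and 10.4 in replicates 1 to 4, and ranked 91, 127, 29 and 1658 in their lists. The site was thus among the strongest of replicates 1, 2 and 3 and lower in the order of replicate 4.

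The other receptor of the final list, nhr-3, also lies on X. Its pooled peak (chrX:14557414-14557753) ranked 158 with a signal of 73.6, and its summit was -920 bp from the start of nhr-3. That summit was closer, at 193 bp, to the start of the non-coding RNA gene H01A20.2. The replicate signal values over it were 36.5, 7.13, 24.3 and 13.9, with ranks of 120, 3727, 90 and 352, so the site stood lower in the order of replicate 2 than in the other replicates. The summit of that replicate 2 peak lay outside the window, in which the strongest replicate 2 summit ranked 9241. A second final peak lay in an intron of nhr-3 (chrX:14560199-14560538), outside the window and 1865 bp from the start. It ranked 275 in the pooled list with a signal of 60.03, and 2097, 64, 4894 and 1536 in replicates 1 to 4, so replicate 2 was the one where this peak was strongest.

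The peaks at nhr-48 and nhr-255, both on X, fell just outside the final list. nhr-48 encodes a receptor of the group of DAF-12 and NHR-8, related to the vertebrate vitamin D and pregnane X receptors. Its peak (chrX:15707459-15707798) ranked 323 with a signal of 57.2 and lay at -584 bp; the replicate signal values were 31.6, 7.94, 11.9 and 15.6 and the ranks 200, 2354, 1866 and 203. All 4 replicates therefore had a peak over it among their 3912 strongest. The peak at nhr-255 (chrX:15741832-15742171) ranked 333 with a signal of 56.6 and lay at -608 bp, 48 bp from the start of a tRNA gene. Replicates 1 to 3 had signal values of 19.5, 10.4 and 22.1 there, with ranks of 1848, 703 and 140, and replicate 4 had no overlapping peak. Of all pooled peaks, 99 (2.53%) had a summit within 500 bp of a tRNA gene.

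**Figure D1:**
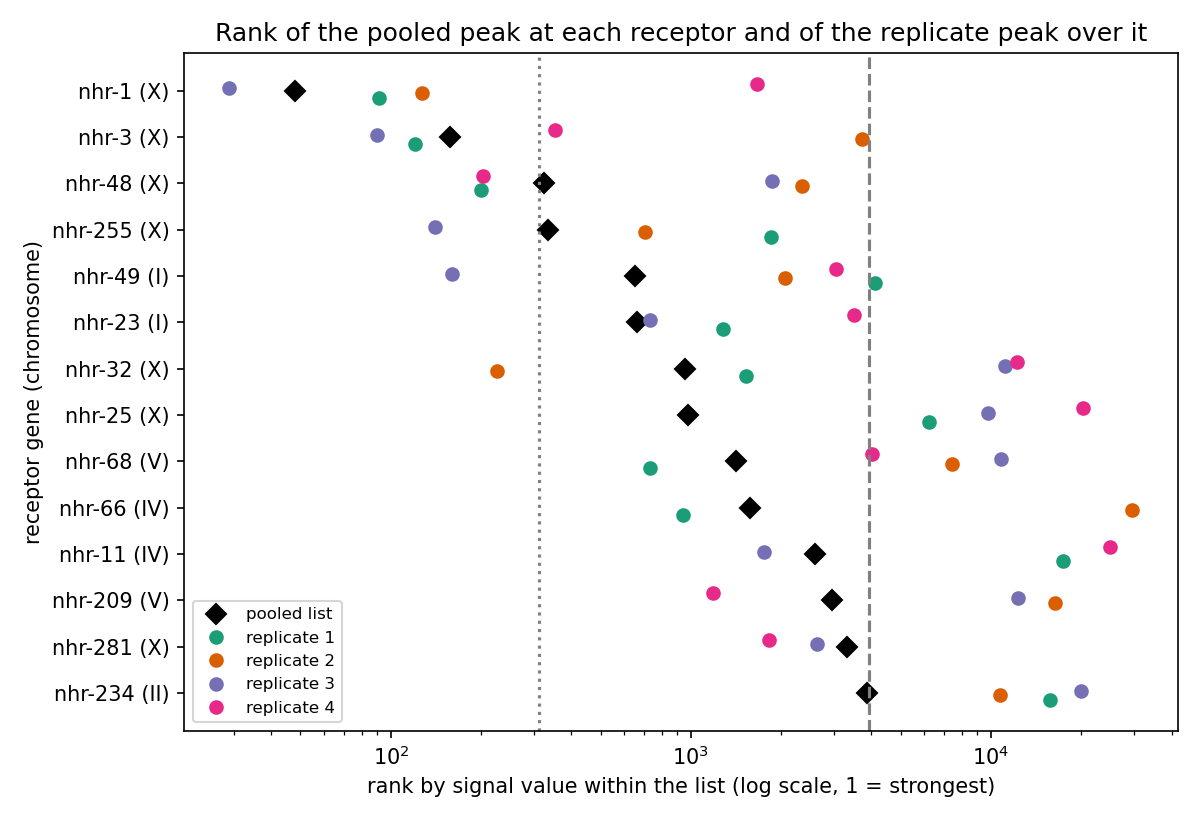
Rank of the pooled peak (black diamonds) and of the replicate peak over it (coloured points) at the 14 receptors with a pooled summit; the x axis is the rank by signal value within each list on a log scale, 1 being the strongest, with lines at 312 and 3912. The replicate points lie close together at few receptors, and below nhr-23 most of them are to the right of 3912.

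Receptors for molting and larval development were represented by 2 of 7 genes of a list compiled with earlier results of these data known, nhr-23 and nhr-25, against 9.25% of all protein-coding genes (95% exact binomial interval for the list 3.67% to 71.0%). nhr-23, the counterpart of the ROR receptors and insect DHR3, drives the molting cycle. Its pooled peak (chrI:7213736-7214075) ranked 663 with a signal of 45.7 at -839 bp, and peaks over it ranked 1279, 729 and 3502 in replicates 1, 3 and 4. In replicate 2 the strongest peak in the window ranked 3197 and did not overlap the pooled one, so all 4 replicates had a summit among their 3912 strongest peaks at nhr-23 but not at 1 position. nhr-25, the counterpart of FTZ-F1 and SF-1, acts in epidermal development and molting. Its peak (chrX:13007957-13008296) ranked 975 with a signal of 41.05 at -366 bp and was 102 bp from the start of the non-coding RNA gene F11C1.13. The overlapping replicate peaks ranked 6217, 9750 and 20237 in replicates 1, 3 and 4, outside the 3912 strongest of each.

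Receptors for metabolism and nutrient response were represented by 3 of 14 listed genes (21.4%, 95% exact binomial interval 4.66% to 50.8%), nhr-49, nhr-66 and nhr-68, and the interval includes the 9.25% of all genes. nhr-49 encodes an HNF4-related regulator of fatty acid desaturation and oxidation. Its pooled peak (chrI:9869131-9869470) ranked 653 with a signal of 45.9 at -350 bp, and the peaks over it had signal values of 16.6, 8.19, 21.1 and 9.27 and ranked 4094, 2056, 160 and 3041 in replicates 1 to 4. Replicate 3 thus ranked this site well above the other replicates. NHR-66 is known as a partner of NHR-49, and the peak at nhr-66 (chrIV:8232399-8232738, rank 1577, -731 bp, in an intron) was overlapped at ranks 943 and 29611 in replicates 1 and 2 and by no peak of replicates 3 and 4. NHR-68 activates the propionate shunt together with NHR-10; the peak at nhr-68 (chrV:11572968-11573307, rank 1416, -302 bp) ranked 732, 7445, 10846 and 4013, and its summit was nearer, at 148 bp, to the start of the protein-coding gene H12C20.7. A summit in the nhr-49 window was among the 3912 strongest peaks of all 4 replicates, and one in the nhr-66 and nhr-68 windows among those of replicate 1 alone.

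The other receptors with a pooled summit belong to none of the lists above. The peak at nhr-32 (chrX:13251444-13251783, rank 959, -350 bp) ranked 1522, 226, 11136 and 12235 in replicates 1 to 4, high in replicates 1 and 2 and low in replicates 3 and 4. nhr-11 (chrIV:9071334-9071673, rank 2585, -61 bp, in an intron) had overlapping peaks at ranks 17327, 1758 and 25022 in replicates 1, 3 and 4. The only one with its summit downstream of a start was nhr-209 (chrV:12098036-12098375, rank 2945, 57 bp into an untranslated exon), overlapped at ranks 16401, 12331 and 1188 in replicates 2 to 4. These peaks were each strong in 1 or 2 replicates. nhr-281 (chrX:14113871-14114210, rank 3302, -594 bp) was overlapped at ranks 2637 and 1816 in replicates 3 and 4, and replicate 1 had another summit in its window at rank 3047. nhr-234 (chrII:12635706-12636045, rank 3874, -802 bp), near the end of the pooled list with a −log10 q-value of 0.0173, had overlapping peaks at ranks 15714, 10762 and 19940 in replicates 1 to 3.

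The conserved receptors, those with counterparts outside nematodes, had a pooled summit at 3 of 12 genes (25%, 95% exact binomial interval 5.49% to 57.2%), namely nhr-23, nhr-25 and nhr-48, against 9.25% of all protein-coding genes. Among the 3912 strongest peaks, 3, 2, 3 and 3 of the 12 had a summit in replicates 1 to 4. The shares of all protein-coding genes at that cut were 8.62%, 6.89%, 8.28% and 7.54%. For the remaining 9 the replicates gave scattered, mostly low-ranking peaks. nhr-69, related to HNF4, had summits at ranks 1719, 29622, 10725 and 22624, nhr-85, the E75 and Rev-erb counterpart, at 9990, 4392, 11582 and 18617, and nhr-41, the DHR78 counterpart, at 21821, 10555, 18737 and 20645. nhr-91, the counterpart of germ cell nuclear factor, had summits in replicates 2 and 3 at ranks 12583 and 1597, and nhr-64, related to HNF4, in replicates 1 and 3 at 6938 and 21913. nhr-6, the NR4A counterpart, had them in replicates 2 and 3 at 25784 and 23290. nhr-8, which acts in xenobiotic and cholesterol responses, had a summit in replicate 2 alone at rank 7567, nhr-67, the tailless counterpart, in replicate 2 at 19233, and nhr-111 in replicate 4 at 3802.

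Of 5 receptors that bear other names, 0 had a pooled summit, against 9.25% of all genes (95% exact binomial interval for the list 0% to 52.2%). Of these, daf-12, fax-1, odr-7 and sex-1 lie on X, where 11.8% of the genes without an nhr- name had a pooled summit. So few genes cannot tell the 30.4% of the nhr- genes on X from that share, and the interval for the list includes both. daf-12, the steroid receptor of the dauer decision, had summits at ranks 23601, 7382, 4099 and 11733 in replicates 1 to 4. sex-1, an X-linked signal of sex determination, had them at ranks 5027, 9379 and 28377 in replicates 1, 3 and 4. fax-1 and odr-7, both regulators of neuron identity, had 1 each, at rank 12272 in replicate 1 and 19972 in replicate 3, and unc-55, which patterns motor neurons, had none in any replicate. None of the 5 was among the 3912 strongest peaks of a replicate.

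Of the coregulators and modifiers that act with the receptors, 5 of 6 matched genes had a pooled summit (83.3%, 95% exact binomial interval 35.9% to 99.6%), against 9.25% of all genes. This list was compiled with earlier results of these data known, so its share cannot serve as a test. Among the 3912 strongest peaks, 5, 3, 3 and 3 of the 6 had a summit in replicates 1 to 4. The shares of all genes there were 8.62%, 6.89%, 8.28% and 7.54%. In the final list 2 of the 6, din-1 and cbp-1, had a summit, against 1.11% of all genes. din-1 encodes a corepressor of DAF-12, and its strongest peak (chrII:11634191-11634530) ranked 27 with a signal of 112.5 at -752 bp and 33, 35, 1703 and 70 in replicates 1 to 4; it lay 27 bp from the start of the non-coding RNA gene ZK20.8. cbp-1 encodes the CBP and p300 acetyltransferase, and its strongest peak (chrIII:9765418-9765757) ranked 247 with a signal of 63.1 at -921 bp and 139, 1674, 598 and 5133 in the replicates. The summit of that cbp-1 peak was nearer, at 479 bp, to the start of the non-coding RNA gene R10E11.10. The others with a pooled summit were smo-1, which encodes SUMO (pooled rank 652), gei-8, an NCoR-like corepressor (2217), and ubc-9, the SUMO-conjugating enzyme (2256). Their −log10 q-values were 0.740, 0.110 and 0.106, so none had a q-value of at most 0.05. mdt-15, the Mediator subunit that works with NHR-49, had no pooled summit and ranked 8482, 19032 and 1723 in replicates 2 to 4.

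Among genes upstream and downstream of the receptors, 0 of 6 genes of steroid ligand synthesis and 0 of 6 targets of NHR-49 had a pooled summit (95% exact binomial interval 0% to 45.9% for each), and both intervals include the 9.25% of all genes. Of 7 molting targets of NHR-23, mlt-8 (rank 2129) and mlt-10 (rank 3463) did, and of 5 propionate shunt genes, alh-8 (rank 2587) did. With lists of 5 to 14 genes the exact intervals are wide, and no list was tested against another.

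Counted over the whole family, the pooled share of receptors was below that of other genes, but the direction depended on which peaks were kept. The final list gave 2 of 269 (0.743%, 95% exact binomial interval 0.0902% to 2.66%), against 1.11% of all protein-coding genes. The pooled list gave 14 of 269 (5.20%, interval 2.87% to 8.58%) against 9.25% of all and 9.30% of the other protein-coding genes, a ratio of 0.559. With only the peaks of q at most 0.05, an alternative chosen after seeing the data, the ratio was 0.993. Leaving out each replicate in turn, with peaks kept that overlapped the strongest of each of the other 3, gave ratios from 1.19 to 1.62 on 3 to 4 receptors, and 0 to 1 receptors in the final list. The intervals cover counting error over genes only, and neighbouring genes are not independent.

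The replicates were closer to the background than the pooled list. At the 3912 strongest peaks of each, 19, 14, 19 and 18 receptors had a summit in replicates 1 to 4, which is 7.06%, 5.20%, 7.06% and 6.69% of the family, against 8.62%, 6.89%, 8.28% and 7.54% of all protein-coding genes. The ratio to the other genes was 0.827 ± 0.0570 (SD, n = 4) and at this cut lay below 1 in each replicate, from 0.752 to 0.886. At the 312 strongest peaks it was 0.879 ± 0.386, from 0.402 to 1.33. At the 10000 strongest it was 0.870 ± 0.169, from 0.723 to 1.09, so at these cuts the replicates differed in direction. In the whole lists of 23684 to 30000 peaks, 75, 101, 105 and 119 receptors had a summit (27.9%, 37.5%, 39.0% and 44.2%), against 34.8%, 37.8%, 41.5% and 40.3% of all genes, so replicate 4 was above its background and replicate 1 furthest below. The mean ratio over the whole lists was 0.958 ± 0.126 (SD, n = 4).

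Much of the family lies where peaks were few. Chromosome V holds 167 of the 269 receptors (62.1%), against 24.5% of the other protein-coding genes. When each chromosome's share among other genes was applied to the receptors on it, 19.2 receptors were expected in the pooled list, and the 14 observed gave a ratio of 0.729. In the replicates the same ratio was 0.980 ± 0.0668 (SD, n = 4), with values of 1.03, 0.881, 1.02 and 0.996. Set against their own chromosomes, the receptors were thus near the other genes in the replicates. In the pooled list the count was below the expected one. That difference, 14 against 19.2 genes, was given no interval, so a deficit beyond counting error is not shown. After this adjustment the pooled ratio was above 1, at 1.38, for the peaks of q at most 0.05, and from 1.80 to 2.50 for peaks found again in 3 replicates, on 3 to 4 receptors each.

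On X, 7 of 23 receptors had a pooled summit (30.4%, 95% exact binomial interval 13.2% to 52.9%), against 11.8% of the other X genes. At the 3912 strongest peaks of each replicate, 6, 4, 7 and 5 of the 23 did, a share of 23.9% ± 5.61 (SD, n = 4) against 10.4% ± 0.240 for the other X genes. For the pooled peaks of q at most 0.05 the counts were 4 of 23 (17.4%) against 2.18% of the other X genes. In the replicates the ratio was 2.30 ± 0.546 and lay above 1 in each replicate, from 1.64 to 2.93. The replicates score the same 23 genes, so these SDs do not measure counting error over genes. The 95% exact binomial interval was 10.2% to 48.4% in replicate 1, 4.95% to 38.8% in replicate 2 and 7.46% to 43.7% in replicate 4. Each of these includes the share of the other X genes in that replicate, 10.5%, 10.6% and 10.1%. In replicate 3 the interval, 13.2% to 52.9%, lay above the 10.4% of the other X genes. Without the pooled peaks near tRNA genes, nhr-255 dropped out and 6 of 23 receptors on X (26.1%) remained against 11.5% of the other X genes. The 16 X receptors without a pooled summit were nhr-14, nhr-17, nhr-26, nhr-27, nhr-28, nhr-35, nhr-40, nhr-45, nhr-71, nhr-91, nhr-120, nhr-137, nhr-167, nhr-173, nhr-214 and nhr-272. The X share was singled out after its value was seen.

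On V, 2 of 167 receptors had a pooled summit (1.20%, 95% exact binomial interval 0.145% to 4.26%), nhr-68 and nhr-209, against 5.20% of the other genes of V. In the replicates the counts were 6, 5, 7 and 9, a share of 4.04% ± 1.02 against 5.42% ± 0.496 (SD, n = 4), with a mean ratio of 0.737. Each replicate thus held more receptors of V than the pooled list. Chromosomes I to IV together gave 5 of 79 (6.33%) against 10.4%, and all autosomes 7 of 246 (2.85%, interval 1.15% to 5.78%) against 8.91%. Chromosome III had 0 of 8 (interval 0% to 36.9%, where 3 counts would be 37.5%) against 12.9% of its other genes, which the interval includes. Within the chromosomes, each chromosome was split into a middle part and 2 outer parts of equal length, and 8 of 197 receptors in the outer parts (4.06%) and 6 of 72 in the middle parts (8.33%) had a pooled summit, against 8.20% and 11.1% of the other genes.

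**Figure D2:**
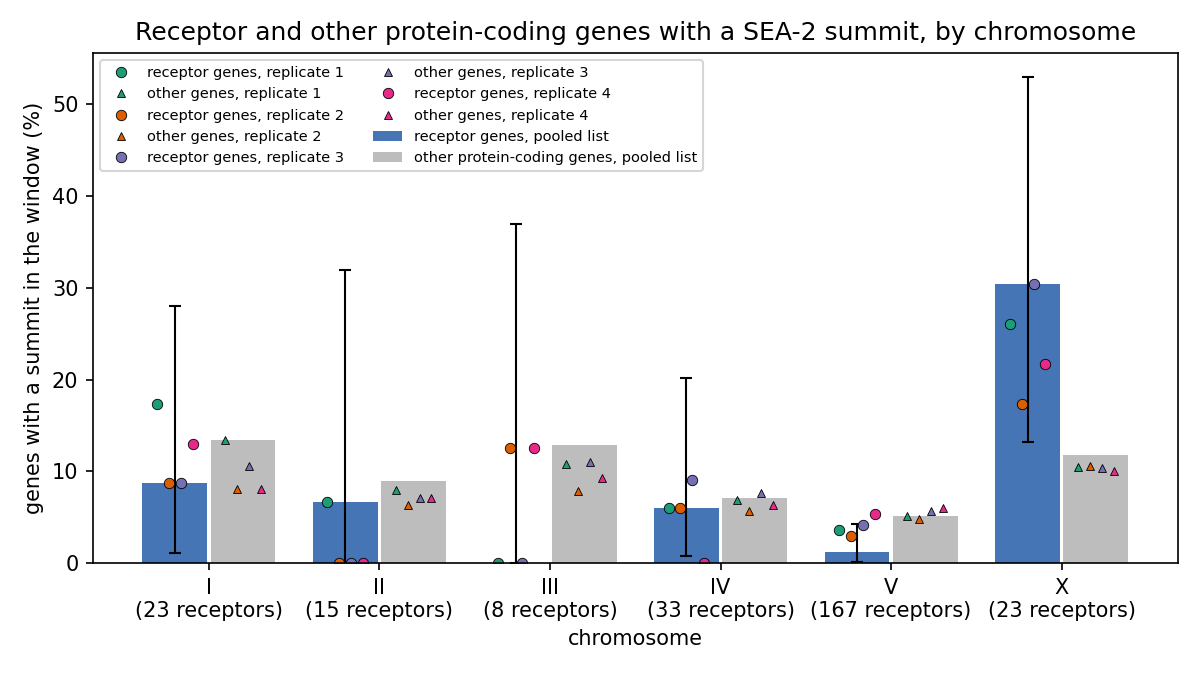
Share of receptor genes (blue bars) and of other protein-coding genes (grey bars) with a pooled summit in the window, by chromosome, in percent; lines are 95% exact binomial intervals, and points are the 4 replicates at their 3912 strongest peaks. On X the receptor points lie above all points of the other genes, and on V the pooled share of 1.20% lies below all replicate points of both gene groups.

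Few receptors were found again from replicate to replicate among the strongest peaks. At the 3912 strongest peaks, 221 of 269 receptors (82.2%) had a summit in no replicate and 37 (13.8%) in 1, against 78.1% and 15.7% of the other genes. There were 4 in exactly 2 replicates (1.49% against 3.81%), 3 in 3 (1.12% against 1.52%) and 4 in all 4 (1.49% against 0.883%). The receptors in all 4 were nhr-1, nhr-23, nhr-48 and nhr-49, and those in 3 were nhr-3, nhr-255 and nhr-281. A summit anywhere in the window counted. The total windows of the receptors in all 4 were 3885, 4357, 1334 and 3719 bp, in the order named, against a family median of 1201 bp. The receptors were thus less often in 2 replicates than other genes and not less often in 4, on counts of 4 each. In the whole lists, 63, 91, 54, 43 and 18 receptors had a summit in 0, 1, 2, 3 and 4 replicates. These were 23.4%, 33.8%, 20.1%, 15.99% and 6.69% of the family. The shares of the other genes were 23.7%, 29.7%, 23.5%, 14.6% and 8.51%. The receptor share was above that of the other genes for 1 and 3 replicates and below it for 0, 2 and 4.

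**Figure D3:**
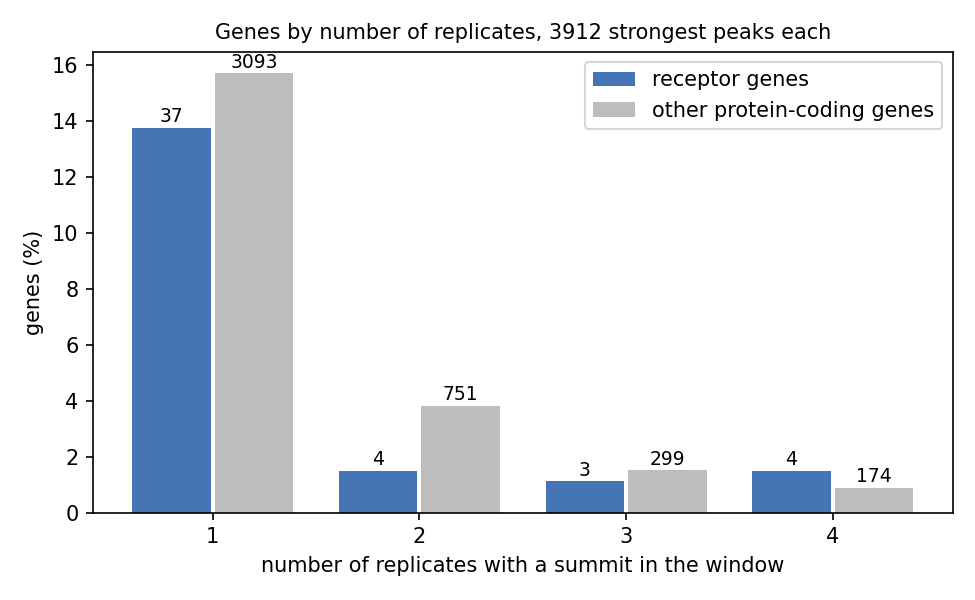
Share of receptor genes (blue) and of other protein-coding genes (grey) in percent, by the number of replicates in which a summit among the 3912 strongest peaks lay in the window; numbers over the bars are genes. The share falls from 13.8% of receptors in 1 replicate to 1.49% in 4, with 4 receptors in the last group.

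The positions of the peaks at the receptors were set beside those at other genes, as counts over 14 peaks without intervals. The window reaches 1000 bp upstream and 200 bp downstream of a start, so it favours upstream summits by construction. Of the 14 strongest summits in the windows, 13 (92.9%) were upstream of the nearest start of the gene, against 86.9% at other genes with a pooled summit. The median position was -475 bp against -264 bp, and 7 of 14 (50%) against 72.1% lay within 500 bp of the start, so the receptor summits lay farther upstream. None of the 14 was in a coding exon, against 10.6%, and 11 (78.6%) against 65.8% were intergenic. Only 1 (7.14%) was also in the window of another protein-coding gene, against 37.4%. The receptors with a pooled summit had a larger total window, with a median of 1654 bp against 1201 bp, and 8 of 14 (57.1%) against 41.7% have more than 1 annotated start. Over all genes, with or without a summit, 37.9% of receptors and 27.3% of the others have more than 1.

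**Figure D4:**
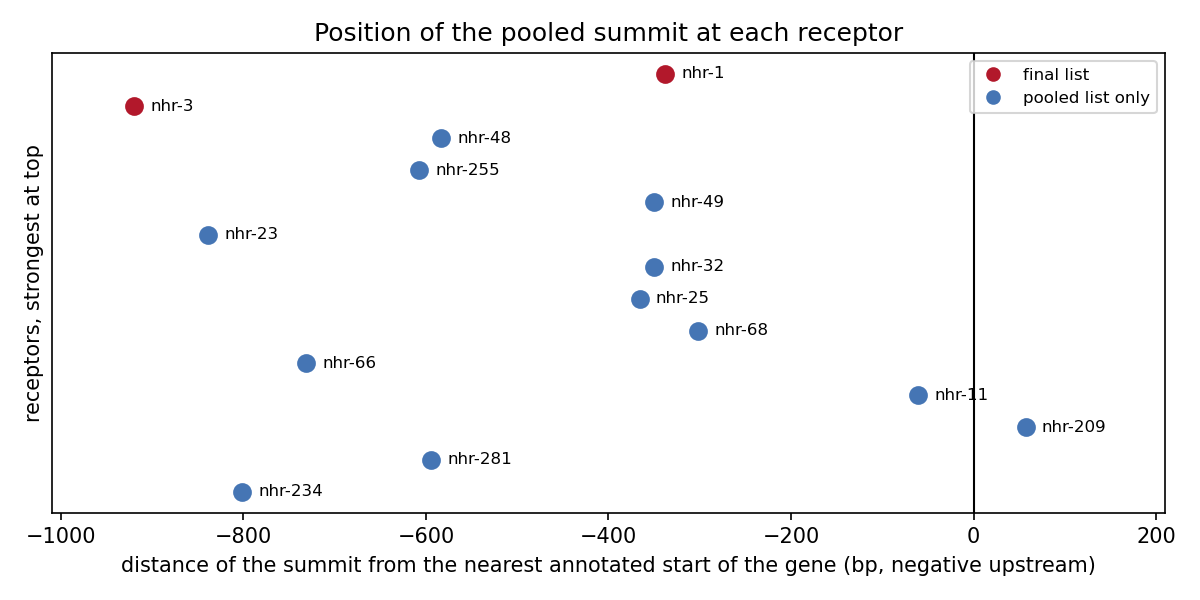
Distance in bp from the nearest annotated start of the gene to the pooled summit for the 14 receptors, negative upstream, ordered from the strongest pooled peak at the top; red marks the final list. All but nhr-209 lie upstream, and nhr-3 at -920 bp is the farthest.

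Receptors that lie close to one another were counted as well. Starts within 2000 bp of another receptor's start were joined into units, and 16 units of 2 or 3 genes held 34 receptors, 24 of them on V. Of the 34, 0 had a pooled summit in the window, where 3 counts would be 8.82%, against 5.20% of the whole family and 1.20% of the receptors on V, so a count of 0 is near those shares.

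Peaks within the receptor genes but outside their windows were about as frequent as in other genes. In the pooled list 19 receptors (7.06%) had one, against 6.39% of all protein-coding genes. Besides the intron of nhr-3, the strongest were in introns of nhr-17 (rank 503, signal 49.6, ranks 598, 2009, 835 and 8205 in replicates 1 to 4) and nhr-62 (rank 1050), a receptor of the response to dietary restriction. The protein-coding start nearest to the nhr-17 peak was that of nlp-76, a neuropeptide-like protein gene. nhr-19 had 2 intron peaks, at ranks 1380 and 2435. The median receptor gene was 2309 bp long and the median of the other genes 2020.5 bp.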

How the data were processed

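Peak lists from SEA-2::GFP ChIP-seq of 4 biological replicates were used as deposited on ce11. Every replicate was called against a common control, the pooled list was called on all 4 alignments, and a threshold on the irreproducible discovery rate gave the final list, per the deposited file records. The aligner, caller and threshold were not given in the sources used here, and without read numbers the depth is unknown. Each peak has the authors' signal value, of unstated scale, and the authors' −log10 q-value, and signal values only ranked peaks within a list. The 312 final peaks were the 312 strongest pooled peaks.

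Summits were assigned with Python 3.11.15 to the windows of Ensembl release 115 genes (WBcel235), and the assignment was checked on simulated data. Annotated starts can be trans-splice sites. Replicates were compared at their 3912 strongest peaks. Intervals are exact (Clopper-Pearson, 95%) and cover counting error only. Copies were searched with blastn 2.17.0. The members and lists were chosen with earlier results of these data known. Named were receptors with a final summit or the 20 strongest pooled peaks, and the list genes with a pooled summit; all conserved and other-named receptors were named whatever their values. Genes named for another reason were chosen after their values were seen. The symbol daf-21 matched no gene. The ce10 lists were not used. Other windows, assignment rules and list sizes were tried.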

Additional observations from a re-analysis of the deposited data

Results flagged for a closer look

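At nhr-1, the replicate peak over the pooled peak ranked 1658 in replicate 4, far from the 91, 127 and 29 of replicates 1 to 3. At nhr-3, the replicate peak over the pooled peak in the promoter window ranked 3727 in replicate 2, far from the 120, 90 and 352 of replicates 1, 3 and 4. The gap to the nearest of the other replicates was 0.94 of the whole range at nhr-1 and 0.928 at nhr-3, above Dixon's 95% critical value for 4 values. Of 9 sets of 4 values examined, these 2 passed it, and chance alone passes about 1 set in 20 where values are normally distributed, which ranks are not. On the log10 scale the gaps were 0.635 at nhr-1 and 0.634 at nhr-3, and 0 of the 9 sets passed.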

How the results depend on the processing

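With a window from 500 bp upstream to 100 bp downstream, 1 receptor had a final and 7 a pooled summit, and the ratio of shares was 0.404, by chromosome 0.528 and as a replicate mean 0.655. A window of 2000 bp upstream gave a replicate mean of 0.753. Any overlap of peak and window gave 0.636 and 0.820 by chromosome. The nearest protein-coding start alone gave 0.652, 0.845 by chromosome and 0.9498 as a replicate mean. The stronger 50% of peaks left 1 receptor in the final list, with pooled ratios of 0.666 and 0.886 by chromosome. All these ratios stayed below 1.

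Leaving out each replicate in turn, and keeping peaks that overlapped the strongest of each of the other 3, left 47 to 65 final and 293 to 387 pooled peaks, with 0 to 1 receptors in the final and 3 to 4 in the pooled list. The ratio was then 1.19 to 1.62, and 1.80 to 2.50 by chromosome, above 1 in each case, while the mean ratio over the remaining replicates was 0.807 to 0.852. Fewer peaks enter by construction; why the direction turned was not tested.

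3 alternatives were chosen after seeing the data. Peaks of q at most 0.05 left 4 receptors in the pooled list, with ratios of 0.993 and 1.38 by chromosome. Shares by chromosome and by its middle or outer part gave 0.765, and leaving out peaks near tRNA genes gave 2 and 13 receptors and ratios of 0.526 and 0.686 by chromosome. No paired analysis was possible because there is 1 group. The depth is unknown, so a missing peak says only that none was called.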

Other observations

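Of the receptors without a pooled summit, 3 had a summit among the 3912 strongest peaks of 2 replicates and are named here after their values were seen. They are 1.18% of such receptors, near the 1.37% of the other genes without a pooled summit. nhr-42, on V, had summits at rank 2145 in replicate 3, 2865 in replicate 4 and 11765 in replicate 1. nhr-253, also on V, had them at rank 3026 in replicate 1, 2476 in replicate 2 and 12718 in replicate 4. nhr-280, on III, had them at rank 2164 in replicate 2, 2900 in replicate 4 and 20934 in replicate 1.

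Some pooled peaks inside receptor genes were strong in 1 replicate. The peak in a coding exon of nhr-23 ranked 2007 in the pooled list, 316 in replicate 1 and 29659 in replicate 3, with no overlapping peak in replicates 2 and 4. The peak in an intron of nhr-20 ranked 3871 in the pooled list, 6534 in replicate 3 and 181 in replicate 4, with none in replicates 1 and 2. The peak in an untranslated exon of nhr-146 ranked 3787 in the pooled list, 470 in replicate 1 and 21625 in replicate 4, with none in replicates 2 and 3.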
